A study of Mus musculus with 16 samples.

Results

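Chromatin loops were examined at 10 genes of the Notch pathway in the newborn mouse cochlea: the receptors *Notch1* and *Notch2*, the ligands *Jag1*, *Jag2* and *Dll1*, the glycosyltransferase *Lfng*, and the target genes *Hes1*, *Hes5*, *Hey1* and *Hey2*. The genes were chosen by name from the pathway, with earlier results of these data known. They are 10 of the 21755 protein-coding genes annotated on the 20 chromosomes of the loop list. Of the 6798 loops in the list, 19 had an anchor in 1 of these genes or within 100 kb of its start site, and 14 spanned 1 of them, meaning that the whole gene lay between the inner edges of the anchors. Because 7 loops did both, 26 loops are described.

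The loops come from Micro-C, in which micrococcal nuclease cuts chromatin between nucleosomes and ligation joins fragments that lie close together in the nucleus. Whole cochleae of C57Bl/6 mice at postnatal day 0 were used in 4 replicates, which the authors merged before calling loops in 10 kb bins. The sample labels give postnatal day 0, while the design text allows day 0 or 1. The fourth replicate is called technical in the study's text and biological in its supplement, so the number of independent samples behind the list is 3 or 4. In that supplement the fourth replicate has more read pairs after duplicate removal than the other 3 together. The replicates therefore did not contribute evenly to the merged data. The tissue contains hair cells, supporting cells and many other cell types, so a loop present in a few cells and a weak loop present in all of them cannot be told apart. The merged list has no spread between replicates and gives no contact counts, and the depth behind each loop is therefore unknown here.

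In Notch signalling, a ligand on 1 cell binds a receptor on its neighbour, the receptor is cleaved, and its intracellular part enters the nucleus and activates target genes together with the DNA-binding protein RBPJ. Fringe enzymes add sugars to the receptor and change which ligands it responds to. In the cochlea the pathway is known for setting aside the sensory domain early, through *Jag1*, and later for lateral inhibition, by which hair cells that present *Dll1* and *Jag2* keep their neighbours as supporting cells.

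Every one of the 10 genes had an anchor bin within 100 kb of its start site, against 62.7% of all protein-coding genes. Of 39 other pathway genes, described below, 20 had one. A start site, taken as the 5′ end of the gene, fell inside an anchor bin at 3 of the 10 genes, *Jag1*, *Hes1* and *Hey1*, against 7.1% of all genes. With any annotated transcript start the count was again 3, against 12% of all genes. An anchor bin overlapped the gene body at 6 of 10, against 24.1%, and at least 1 loop spanned 8 of 10, against 28.1%. The genes of the 10 not spanned were *Notch1* and *Jag2*. Of the 39 other pathway genes, 4 had the start site in an anchor, 11 had an anchor in the gene body and 8 were spanned. The 10 genes had a median length of 9.98 kb and all protein-coding genes 17.4 kb, and a short gene is more easily spanned and less easily hit by an anchor.

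The median distance from a start site to the nearest anchor bin was 11.1 kb for the 10 genes. Over all protein-coding genes it was 56.6 kb, with quartiles of 17.7 and 193 kb. The value depends on the calls kept, and at an FDR below 0.01 it was 50.3 kb for the 10 genes and 152 kb over all genes. The 10 genes were not evenly placed along this range. *Jag1*, *Hes1*, *Hey1*, *Hey2* and *Dll1* lay within 3.13 kb of an anchor, whereas *Notch1*, *Lfng*, *Jag2* and *Notch2* lay between 43.3 and 83.5 kb from one, close to the median gene.

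**Figure D1:**
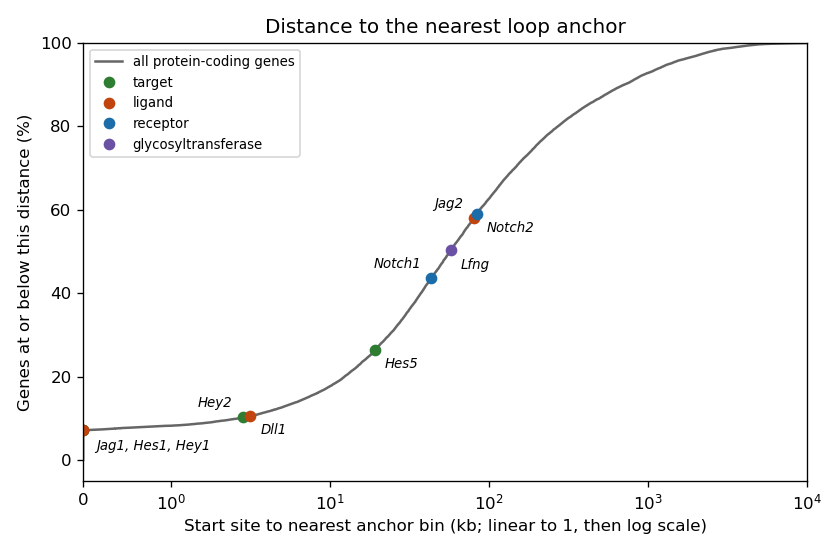
Cumulative share of all protein-coding genes (y axis, percent) against the distance from the start site to the nearest anchor bin (x axis, kb, linear up to 1 kb and logarithmic beyond it), with the 10 Notch pathway genes marked by role. The points of *Jag1*, *Hes1* and *Hey1* coincide at 0 kb, and the farthest of the 10 is *Notch2* at 83.5 kb.

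Each loop has an FDR, the false discovery rate that the loop caller assigned to it, and a low FDR marks a firmer call. The 19 loops with a nearby anchor had a median distance of 240 kb, and all loops 280 kb. Their median FDR was 0.00358 and that of all loops 0.0113, and 52.6% of them had an FDR below 0.01, against 48% of all loops. The 14 spanning loops were longer, with a median distance of 480 kb. A loop must be long enough to hold a whole gene to span it, so part of this difference follows from the rule.

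**Figure D2:**
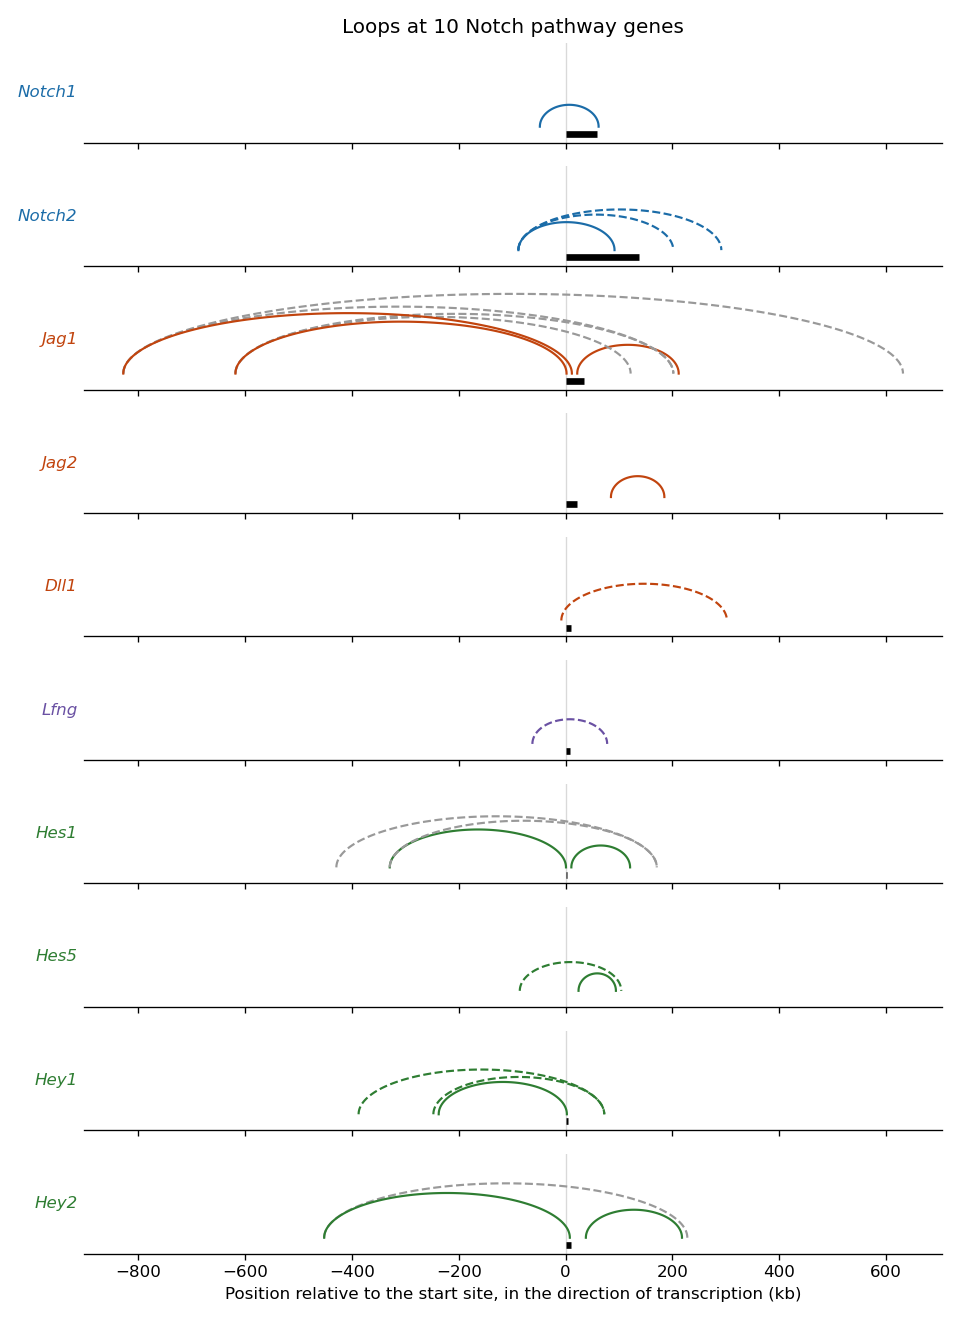
Loops at the 10 genes, 1 panel per gene, drawn as arcs between bin centres against position relative to the start site in the direction of transcription (kb), with arc height rising with the square root of loop distance. Black bars are the genes, dashed arcs span the gene, and grey arcs have no anchor in the gene or within 100 kb of its start site. Loops at the start sites of *Jag1*, *Hes1* and *Hey1* all lead to the left, that is upstream.

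*Notch1*, a receptor that acts in lateral inhibition, lies on the minus strand at chr2:26457903-26516663 (ENSMUSG00000026923.15, mm10, GENCODE vM21). It had 1 loop, of 110 kb, from chr2:26450001-26460000 to chr2:26560001-26570000, with an FDR of 0.000713. The left anchor covers the 3′ end of the gene, over exon 34 of 34, and the right anchor lies 43.3 kb upstream of the start site. The start site lies between the anchors but the gene is not spanned, because its end reaches into the left anchor. Of loops within 20% of the same distance, 19.7% had a lower FDR. The principal transcript starts 12841 bp downstream of the annotated 5′ end of the gene, and from there the nearest anchor is 43822 bp away. From the closest of all annotated transcript starts of *Notch1* it is 2.75 kb away.

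*Notch2*, another receptor of the same family, lies on the plus strand at chr3:98013527-98150361. Its 3 loops shared a left anchor at chr3:97920001-97930000, 83.5 kb upstream of the start site. The shortest, of 180 kb, ended inside the gene at chr3:98100001-98110000, over exons 8 to 12 of 34, with an FDR of 0.023. The loop of 290 kb to chr3:98210001-98220000 spanned the gene and had the lowest FDR of the 3, 0.000181. The loop of 380 kb to chr3:98300001-98310000 spanned it too, with an FDR of 0.0434. Neither receptor had its start site in an anchor, and in both an anchor lay in the gene body away from the start. The anchor inside *Notch2* was lost at an FDR below 0.01 and with the smallest detection scale only.

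*Jag1*, the ligand of the early sensory domain and of supporting cells, had the most loops of the 10 genes, 7, counting spanning loops. Only 3 of them had a nearby anchor, as many as at *Notch2* and *Hey1*. At an FDR below 0.01 *Hes1* had as many loops as *Jag1*. The gene *Jag1* lies on the minus strand at chr2:137081456-137116644 and has only 5 other protein-coding start sites within 500 kb, where the median gene has 16. The bin that holds its start site, chr2:137110001-137120000, covers exons 1 and 2 of 26 and looped over 620 kb to chr2:137730001-137740000 with an FDR of 0.000556. The next bin in the gene, over exons 3 to 5, looped over 840 kb to chr2:137940001-137950000 with an FDR of 0.0101. Both partners lie upstream of *Jag1*, in a stretch whose nearest protein-coding start site, that of *Btbd3*, is 516565 bp from the closer partner and 306565 bp from the farther one. A lincRNA, *Gm14064*, overlaps the closer partner, and no annotated gene overlaps the farther one.

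The same upstream bins were used again by loops that passed over *Jag1*. Each of them served 3 loops. Of the 41 anchor bins of the 26 loops, 10 (24.4%) served more than 1 loop, against 13.4% of all anchor bins, but bins reached through their loops favour those with several. From chr2:136910001-136920000, inside *Slx4ip*, a loop of 820 kb reached the closer bin with an FDR of 0.00524, and a loop of 1030 kb reached the farther bin with an FDR of 0.00101. For the loop of 1030 kb, 9.15% of loops within 20% of the same distance had a lower FDR. *Jag1* was the only protein-coding start site between the anchors of both loops. A shorter spanning loop of 740 kb, from chr2:136990001-137000000 to the closer bin, had a high FDR of 0.07, and the longest, of 1460 kb, had an FDR of 0.0556. On the downstream side, a loop of 190 kb joined exons 6 to 13 of *Jag1* to chr2:136900001-136910000 with an FDR of 0.0364.

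**Figure D3:**
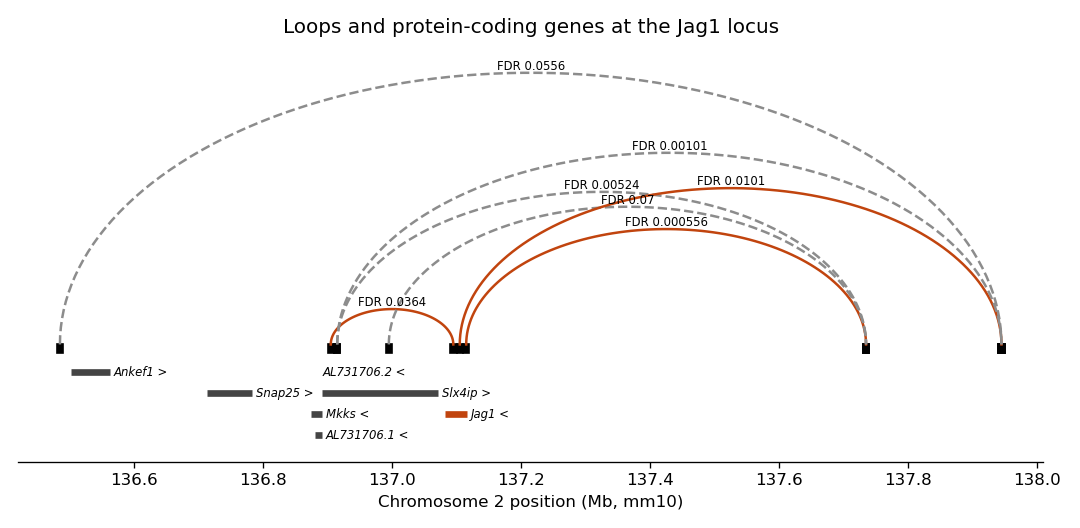
Loops at *Jag1* on chromosome 2 (x axis, position in Mb, mm10), drawn as arcs between bin centres with the FDR of each loop. Black boxes are anchor bins and bars are protein-coding genes with their strand, and dashed arcs span *Jag1*. Of the 7 loops, 6 end at 1 of a pair of upstream bins, each used by 3 loops, in a stretch without protein-coding genes.

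*Jag2*, a ligand made by hair cells, had fewer loops than *Jag1*. It lies on the minus strand at chr12:112907819-112929776, with no anchor in the gene and no spanning loop. Its nearest anchor was 79.8 kb away on the downstream side, the right end of a loop of 100 kb from chr12:112740001-112750000 to chr12:112840001-112850000 with an FDR of 0.0306. On the upstream side the nearest anchor lay 3310 kb away. At an FDR below 0.01, *Jag2* was the only one of the 10 genes without an anchor within 100 kb, where 41.3% of all protein-coding genes had one.

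*Dll1*, a Delta-type ligand of nascent hair cells, lies on the minus strand at chr17:15367354-15376872. A single loop of 310 kb, from chr17:15070001-15080000 to chr17:15380001-15390000, spanned the gene and no other protein-coding start site. Its right anchor lay 3.13 kb upstream of the start site, and its FDR of 6.31e-05 ranked 384 in the list. Of loops within 20% of the same distance, 7.32% had a lower FDR. The left anchor lies in *Ermard*. The 3 ligands therefore ranged from a gene with 7 loops to a gene with 1 loop that did not touch it.

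*Lfng*, the lunatic fringe glycosyltransferase that modifies Notch receptors, lies on the plus strand at chr5:140607320-140615545. It was spanned by 1 loop of 140 kb, from chr5:140540001-140550000 to chr5:140680001-140690000, with an FDR of 0.00325. The anchors lay 57.3 kb upstream and 72.7 kb downstream of the start site, and 3 protein-coding start sites fell between them, those of *Lfng*, *Grifin* and *Ttyh3*.

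*Hes1*, a transcriptional repressor that holds back hair cell differentiation, lies on the plus strand at chr16:30064384-30067796 with 6 other protein-coding start sites within 500 kb. The bin chr16:30060001-30070000 holds the whole gene, all 4 exons. It looped over 330 kb to an upstream bin without annotated genes, chr16:29730001-29740000, with an FDR of 0.000829. The same upstream bin also looped over 500 kb to chr16:30230001-30240000, passing over *Hes1*, with an FDR of 0.00608. A loop of 600 kb from chr16:29630001-29640000, in *Opa1*, to the same right end had an FDR of 0.00352. A loop of 110 kb starting 5.62 kb downstream of the *Hes1* start site, at chr16:30070001-30080000, had the highest FDR of the 26, 0.0772.

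*Hes5*, a related repressor that is a common readout of Notch activity in supporting cells, lies on the plus strand at chr4:154960923-154962371. It had no anchor in the gene. A loop of 190 kb, from chr4:154870001-154880000 to chr4:155060001-155070000, spanned it with an FDR of 0.00247, and the right anchor holds the start site of *Pex10*, a peroxisome assembly gene. A loop of 70 kb, from chr4:154980001-154990000 to chr4:155050001-155060000, began 19.1 kb downstream of the *Hes5* start site with an FDR of 0.0716, and its right anchor holds the start site of the phospholipase gene *Plch2*. Between the anchors of the longer loop there were 5 protein-coding start sites, so *Hes5* shared its loop with more genes than *Hes1* did.

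*Hey1*, a repressor of the Hairy-related family, lies on the minus strand at chr3:8663359-8667256 and had 3 other protein-coding start sites within 500 kb, the fewest of the 10 genes. The loop with the lowest FDR of the 26, 5.63e-05, spanned it over 320 kb from chr3:8590001-8600000 to chr3:8910001-8920000, with *Hey1* as the only protein-coding start site between the anchors. The bin that holds the whole gene, chr3:8660001-8670000, looped over 240 kb to chr3:8900001-8910000, in *Mrps28*, with an FDR of 0.0224. This start-site loop was lost at an FDR below 0.01, with the smallest detection scale only, and when nearby calls were merged, each of which left 2 of 10 start sites in an anchor. Over all protein-coding genes the share was then 3.45%, 5.46% and 6.16%. A loop of 460 kb from the same left anchor as the first to chr3:9050001-9060000 had an FDR of 0.0574.

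*Hey2*, a related repressor known from pillar cells, lies on the minus strand at chr10:30832359-30842801. An anchor bin in the gene, chr10:30830001-30840000, covers exons 4 and 5 of 5 and stops 2.8 kb short of the start site. It looped over 460 kb to chr10:31290001-31300000, an upstream bin without annotated genes, with an FDR of 0.000113 that ranked 542 in the list. A loop of 680 kb to the same upstream bin spanned *Hey2* with an FDR of 0.0576. A loop of 180 kb on the downstream side, with an FDR of 0.00358, joined the bins that hold the start sites of *Hint3*, a nucleotide hydrolase gene, and *Ncoa7*, a nuclear receptor coactivator gene.

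Set side by side, 2 of 4 target genes and 1 of 3 ligands had the start site in an anchor, and neither receptor nor *Lfng* did. All 4 target genes were spanned, as were 2 of 3 ligands, 1 of 2 receptors and *Lfng*. *Hey2* was no longer spanned at an FDR below 0.05, which left 3 of 4 target genes, against 23.8% of all protein-coding genes at that limit. The distance to the nearest anchor ran from 0 to 19.1 kb among target genes, from 0 to 79.8 kb among ligands and from 43.3 to 83.5 kb between the receptors. This gap rests on weak calls and on the start site used. At an FDR below 0.05 *Hes5* lay 80.9 kb from an anchor, and at an FDR below 0.01 *Hey1* lay 67.3 kb from one, so that target genes and receptors overlapped. With any annotated transcript start, *Notch1* lay 2.75 kb from an anchor. The groups are too small for a test and the genes are not replicates of a role. The number of other protein-coding start sites within 500 kb ran from 3 to 16 among target genes and from 13 to 29 between the receptors, so role and gene density cannot be told apart.

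A direction was noticed after the loops had been seen. The 3 loops that start at the start sites of *Jag1*, *Hes1* and *Hey1* all led to a partner upstream of the gene. Over all loops with a protein-coding start site in an anchor, counted once per gene, the partner lay upstream in 47.3%. The *Hey1* loop among the 3 was lost at an FDR below 0.01. Anchors within 10 kb of a start site but not over it led both ways. Those 3.13 kb from *Dll1* and 5.62 kb from *Hes1* led downstream. Those 2.8 kb from *Hey2* and 6.64 kb from *Jag1* led upstream. Of the 14 spanning loops, 7 had exactly 1 protein-coding start site between their anchors, close to the 48.5% among all loops that held at least 1.

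CTCF, the insulator protein found at many loop anchors, binds a known consensus whose direction is read from its strand. A match to a 14-base CTCF consensus with at most 1 mismatch was present in 15 of the 21 anchor bins in or within 100 kb of the 10 genes, which is 71.4% with a 95% Wilson interval of 50 to 86.2%. Such a match was present in 48.4% of all anchor bins and in 21.4% of all bins of the genome. The share moves with the mismatch limit, to 28.6% against 13.6% of all anchor bins with no mismatch and to 100% against 93.7% with at most 2. The interval covers counting error only, and bins near 1 gene are not independent. A match is a stretch of letters and not a measured binding site.

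For 7 of the 26 loops the best match gave 1 direction at each anchor, and in 5 of them the matches pointed toward each other, against 68.3% over all such loops. These convergent loops were the loop of 180 kb at *Notch2*, the longest loop over *Jag1*, the loop near *Jag2*, the spanning loop of 320 kb at *Hey1* and that of 680 kb at *Hey2*. The exceptions both held a start site. At the loop of 330 kb to *Hes1* the matches pointed apart, and at the loop of 240 kb to *Hey1* both lay on the plus strand. Only the loop near *Jag2* and that of 320 kb at *Hey1* had matches with 0 mismatches at both ends. In the others of the 7, both exceptions included, the direction rests on a match with 1 mismatch at 1 end or both.

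Matches at *Hey1*, *Hes1* and *Dll1* are printed where the best match of an anchor lay on 1 strand only. These anchors hold or border the genes' start sites, or are ends of the 2 loops with the lowest FDR among the 26, ranked 362 and 384 in the list. Each is written 5′ to 3′ on the strand of the match in GRCm38, with the 14 bases compared with the consensus in capitals and 8 bases on either side. The match in the *Hey1* bin lies in a coding exon of the gene, that at the right end of the spanning loop in an intron of *Mrps28*, and the others outside annotated genes.
Left end of the *Hey1* spanning loop, chr3:8594881-8594910, plus strand: cctctgagCCACCAGGGGGCAGtgtttaat
Right end of the *Hey1* spanning loop, chr3:8913937-8913966, minus strand: tcagccttCCAGCAGGTGGCAGgcataggt
*Hey1* start-site bin, chr3:8664684-8664713, plus strand: ccaagccgCCACTAGGGGGCGCtcgcaagg
*Hes1* start-site bin, chr16:30060024-30060053, plus strand: tagggtgcCCACTAGGAGGCACagattgcc
*Dll1* right anchor, chr17:15380355-15380384, plus strand: attcacacCCACCAGGTGGAACcggtaggc
The pair at the ends of the *Hey1* spanning loop and the match inside *Hey1* had 0 mismatches, and those at *Hes1* and *Dll1* had 1. The left anchor of the *Dll1* loop had no match within the limit. The *Jag1* start-site bin and the bin in *Hey2* had equally good matches on both strands and are not printed.

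RBPJ recognises a core written TGGGAA. Promoters of 8 of the 10 genes, all but *Hes1* and *Hey1*, were matched by symbol in RefSeq (GRCm38). They had 9 entries, of which *Dll1* has 2. The 250 bases before each RefSeq start site were searched for these letters on both strands. That site can differ from the 5′ end of the gene used above, and at *Notch1* it lies 12841 bp downstream of it. The letters were present at *Hes5*, *Lfng* and *Hey2*, 3 of 9 entries, against 21.7% of all listed promoters. *Hes5* and *Lfng* each held 2 copies and *Hey2* held 1. These promoters are printed with the core in capitals, TGGGAA or its reverse complement TTCCCA, and that of *Jag1*, which lies in an anchor bin and holds no copy, is given beside them.
*Hes5*, chr4:154960673-154960922, plus strand: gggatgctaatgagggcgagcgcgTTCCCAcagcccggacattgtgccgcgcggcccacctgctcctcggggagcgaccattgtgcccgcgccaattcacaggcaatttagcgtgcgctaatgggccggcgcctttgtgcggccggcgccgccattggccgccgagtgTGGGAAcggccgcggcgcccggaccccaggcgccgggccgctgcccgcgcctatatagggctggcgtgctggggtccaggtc
*Lfng*, chr5:140607091-140607340, plus strand: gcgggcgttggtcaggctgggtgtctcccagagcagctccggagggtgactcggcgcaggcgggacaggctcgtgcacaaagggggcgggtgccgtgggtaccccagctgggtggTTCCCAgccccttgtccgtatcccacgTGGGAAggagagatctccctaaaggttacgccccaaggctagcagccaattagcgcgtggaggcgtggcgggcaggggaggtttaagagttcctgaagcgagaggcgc
*Hey2*, chr10:30842784-30843033, minus strand: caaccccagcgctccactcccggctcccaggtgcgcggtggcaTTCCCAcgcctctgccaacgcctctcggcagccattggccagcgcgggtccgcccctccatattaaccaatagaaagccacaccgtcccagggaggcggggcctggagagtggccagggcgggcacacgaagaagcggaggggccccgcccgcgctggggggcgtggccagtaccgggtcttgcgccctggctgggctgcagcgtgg
*Jag1*, chr2:137116521-137116770, minus strand: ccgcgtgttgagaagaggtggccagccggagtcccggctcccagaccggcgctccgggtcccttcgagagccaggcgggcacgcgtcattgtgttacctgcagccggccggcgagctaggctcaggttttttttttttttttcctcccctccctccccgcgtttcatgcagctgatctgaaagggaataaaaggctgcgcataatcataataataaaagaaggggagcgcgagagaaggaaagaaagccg
At *Hes5* and *Lfng* the 2 copies lie on opposite strands.

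A list of 39 other pathway genes, covering further receptors and ligands, proteases, endocytic and nuclear factors and further Hes and Hey genes, was put through the same rules. An anchor lay within 100 kb of the start site at 20 of the 39, against 62.7% of all protein-coding genes, and 8 of the 39 were spanned, against 28.1%. An anchor lay in the gene body at 11 of the 39, against 24.1%, and over the start site at 4, against 7.1%. These genes had a median length of 28.7 kb, longer than the 17.4 kb of all protein-coding genes, and a long gene is less easily spanned and more easily hit by an anchor. Their median distance to the nearest anchor was 89.2 kb, farther than the 56.6 kb of all protein-coding genes. The 4 with the start site in an anchor were *Dner*, *Psen2*, *Maml3* and *Ep300*. *Psen2*, a catalytic subunit of the protease that releases the Notch intracellular part, looped over 150 kb to a bin in *Itpkb* with an FDR of 5.54e-06. *Ep300*, a histone acetyltransferase, looped over 120 kb to the start site of *Rbx1* with an FDR of 0.000342. *Dner*, a transmembrane protein with Delta-like repeats, looped over 960 kb with an FDR of 0.0307, and *Maml3*, a Mastermind coactivator, over 90 kb with an FDR of 0.0879.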

How the data were processed

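Micro-C libraries from 4 replicates of whole cochlea were merged by the authors. The submitters' processing notes name BWA, Juicer and the build mm10, and loops were called with Mustache, whose version is not given in the sources used here. The q-value of each loop (FDR, at most 0.1) was deposited as the authors' loop caller gave it. The deposited score is the caller's detection scale, of which there are 9, the smallest being 2.11.

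Loops were placed against GRCm38.p6 and GENCODE vM21 with Python 3.11.15, numpy 2.4.6, pandas 2.3.3, scipy 1.17.1 and matplotlib 3.10.9. No bin of the list (0 of 6798 loops) ran past the end of its chromosome in this assembly. Distances run from the start site to the nearest edge of a 10 kb bin. FDR was ranked among all loops and among loops within 20% of the same distance. The CTCF consensus was written from general knowledge, and bins with over 10% unknown bases were left out. The interval and motif functions were tested on simulated data.

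The genes and gene lists were chosen with earlier results of these data known. Genes named were the 10 pathway genes, protein-coding genes with a start site in an anchor of a loop in or within 100 kb of these, the shortest spanning loop of each, and other pathway genes with a start site in an anchor. Further genes were named after the loops were seen, to say what an anchor overlaps. No test was made, because the list comes from merged replicates. The alternatives were stricter FDR limits of 0.05 and 0.01, the smallest detection scale only, merging of calls within 100 kb, other windows, start sites and bin widths, and other mismatch limits. ATAC-seq and CUT&RUN samples were not analysed here.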

Additional observations from a re-analysis of the deposited data

How the results depend on the processing

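Of 37 alternatives, 27 left the value within the limits set for it. These limits were wide: the count of genes with an anchor in the body fell from 6 to 4 within them. The count of start sites in an anchor was 5 of 10 with bins widened by 1 bin on each side, where *Dll1* and *Hey2* were added, and 17.7% of all protein-coding genes met that rule. The count of 19 loops fell to 10 at an FDR below 0.01 and to 12 with a window of 50 kb, and rose to 32 with a window of 200 kb, as fewer loops or a wider window imply. The median distance of 11.1 kb became 16.1 kb to the bin centre, 23.2 kb at an FDR below 0.05, 50.3 kb at an FDR below 0.01 and 31.2 kb with the smallest detection scale only. Over all protein-coding genes these medians were 61.6, 74, 152 and 83.9 kb. With any annotated transcript start *Notch1* moved from 43.3 to 2.75 kb, which makes the median shorter. With calls within 100 kb merged *Hey1* moved from 0 to 67.3 kb, which makes it longer. The share of anchors with a CTCF consensus match was 28.6% with no mismatch and 100% with at most 2, against 13.6% and 93.7% of all anchor bins. The count of spanned genes ran from 7 of 10 at an FDR below 0.01, against 15.1% of all protein-coding genes, to 9 of 10 with the start site between the anchors, against 35.3%. At FDR limits of 0.05 and 0.01 the gene lost was *Hey2*. The count with an anchor in the gene body was 4 of 10 at an FDR below 0.01, against 14.5% of all protein-coding genes. With the smallest detection scale only it was again 4, against 19.2%. An anchor lay within a window of 50 kb at 7 of 10, against 47%.

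No paired analysis was possible because the replicates had been merged. The depth behind a loop is unknown here, so the lack of a call does not show that a contact is absent.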
